A study of Mus musculus with 2 samples.

Results

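Amino acid and osmolyte transporters were followed in mouse bone marrow macrophages that had been turned towards osteoclasts, the cells that resorb bone. Members were all genes of the deposited files whose symbol begins with Slc1a, Slc3a, Slc6a, Slc7a, Slc36a, Slc38a or Slc43a followed by a digit, which gave 62 of the 16614 genes listed. The symbol rule takes 1 gene, Slc7a6os, that is no carrier: it lies beside Slc7a6 on the opposite strand and shares only part of its name. The study sequenced 2 libraries, both from the mouse strain C57BL/6: 1 of the genotype WT and 1 of the genotype Foxo3 KO, a knockout of the gene for the forkhead transcription factor FoxO3. In both, marrow from the long bones of the leg was grown for 3 days with the macrophage growth factor M-CSF and then for 2 days with RANKL, the cytokine that drives osteoclast formation. The labels give no age, no sex, no number of animals behind a library and no description of how the knockout allele was made.

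Cells cannot make all amino acids and cannot hold their volume without small organic solutes, so these proteins bring both across membranes. Slc1a, Slc6a and Slc38a carriers draw on the sodium gradient, and some Slc36a carriers on protons. The light chains among the Slc7a proteins exchange an amino acid for another once they are bound to an Slc3a heavy chain. Some carriers sit in the lysosome, where they take part in amino acid sensing by the growth kinase mTORC1. Slc6a12 carries the osmolyte betaine and also GABA. Slc7a11, the light chain of the cystine and glutamate exchanger, supplies cysteine for the antioxidant glutathione. Both genes are described here whatever their level.

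Promoter sequences of these 2 genes are shown because Slc6a12 is the member with the widest difference between the libraries and Slc7a11 is a well known stress-inducible one. They come from RefSeq on GRCm38.p6, which held windows of 300 bases, 250 before to 50 after an annotated start, for 44 of the 62 members. Of the 5 windows of Slc6a12, some of which overlap, the most upstream is printed as the only one that holds a motif searched for, chr6:121342324-121342623 on the plus strand. Its capitals mark a match to the tonicity response element, the site of the osmotic stress factor NFAT5. The window of Slc7a11 is chr3:50443564-50443863 on the minus strand. Its capitals mark the FoxO motif TGTTTAC and, nearer the start, the amino acid response element TGATGNAA on each strand in turn.
Slc6a12: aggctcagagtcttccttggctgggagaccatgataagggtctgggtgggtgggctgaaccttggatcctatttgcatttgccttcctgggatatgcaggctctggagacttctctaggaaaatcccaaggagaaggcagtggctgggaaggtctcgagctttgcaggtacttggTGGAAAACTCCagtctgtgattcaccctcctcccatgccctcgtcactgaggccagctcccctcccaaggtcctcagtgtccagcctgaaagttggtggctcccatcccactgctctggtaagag
Slc7a11: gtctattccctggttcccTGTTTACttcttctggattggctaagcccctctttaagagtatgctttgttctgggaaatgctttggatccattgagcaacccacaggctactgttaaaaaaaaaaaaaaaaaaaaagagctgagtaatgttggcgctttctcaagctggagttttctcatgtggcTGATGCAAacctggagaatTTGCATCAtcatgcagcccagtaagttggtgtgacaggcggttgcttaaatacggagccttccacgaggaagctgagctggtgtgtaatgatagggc

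Of all 32851 promoter windows, 4.96% held the tonicity response element, 3.65% TGTTTAC and 3.97% TGATGNAA, on either strand. Among the 65 windows of members these shares were 9.23%, 3.08% and 6.15%, and windows of a gene can overlap. The tonicity element was matched in 6 members, among them Slc6a12 and its neighbour Slc6a13, and TGTTTAC in Slc7a11 and Slc36a3 alone. None of the 5 windows of Slc6a12 held TGTTTAC, TGATGNAA or the antioxidant response element TGACNNNGC, which 12.4% of all windows held. A match describes the letters and shows no binding.

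Levels are given in FPKM, which divides the fragments of a gene by transcript length and library size, so that they can be compared between genes. Differences are given as the log2 ratio, log2(KO + 1) minus log2(WT + 1), which is above 0 where the KO library was higher and understates the difference of genes of low level. Genes with at least 1 FPKM in either library were counted as measured, which 10003 genes were. With 1 library per genotype no value has a replicate error and no test was possible, so each difference describes this pair of libraries. Fixed sizes of 2-fold and 1.5-fold on this scale took the place of a test.

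Foxo3 read 10.3 FPKM in WT and 0.548 FPKM in KO cells. The summed level of 10 macrophage markers was 2843 FPKM in WT and 2725 FPKM in KO cells. That of 10 osteoclast markers was 20525 and 23066 FPKM, so both libraries held transcripts of both marker lists. Of the macrophage sum Cd68 gave 1573 and 1546 FPKM and Csf1r 697 and 695 FPKM. Whether the 2 cell types were present as separate cells was not tested. Of the macrophage markers 9 of 10 had a log2 ratio below 0, with a median of -0.23. Under both scalings of the libraries that were tried it was 10 of 10. Below 0 lay 42.4% of all measured genes. Mrc1, at 90.2 and 58.0 FPKM, and Mertk, at 17.1 and 10.9 FPKM, were 1.5-fold lower, as were 0.94% of all measured genes. Of the osteoclast markers 7 of 10 had a log2 ratio above 0, or 6 of 10 under both scalings of the libraries that were tried, and none passed 1.5-fold. Markers of other cells summed to 158.3 and 154.5 FPKM for neutrophils. For dendritic cells they summed to 39.0 and 35.3 FPKM, where Clec10a made up 37.4 and 33.2 FPKM. For erythroid cells and megakaryocytes the sums were 56.5 and 26.8 FPKM, where Pf4 made up 55.7 and 26.2 FPKM. Stromal markers summed to 8.86 and 8.21 FPKM. T, NK and B cell markers summed to 7.70 and 7.46 FPKM, where Cd4 made up 6.77 and 6.27 FPKM. Mast cell, basophil and eosinophil markers summed to 2.24 and 1.44 FPKM, while Cd3e, Nkg7, Lum and Fcer1a were listed at 0 in both libraries. The KO library was estimated to be about 1.40 times as deep as the WT library, from genes of a few reads and without read totals. The search did not allow for a deeper WT library, so which library was deeper was not tested. The part of these differences in the transporter values was not tested, and in bulk RNA fewer cells of a type cannot be told apart from less RNA per cell.

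Of the 62 members, 22 were measured, 26 lay below 1 FPKM in both libraries and above 0 in at least 1, and 14 were listed at 0 in both. Expression was concentrated in few genes. Slc6a6, Slc1a5, Slc6a8 and Slc38a2 together gave 60.3% of the summed FPKM of all members in WT and 62.2% in KO cells. The sum over all members was 946.5 FPKM in WT and 964.5 FPKM in KO cells, a log2 ratio of sums of 0.03, the same to 2 decimals as over all genes listed. The lowest measured member was Slc7a4, at 1.55 FPKM in WT and 2.02 FPKM in KO cells, and the highest below the minimum were Slc6a17, at 0.882 and 0.709 FPKM, and Slc6a4, at 0.721 and 0.884 FPKM.

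**Figure D1:**
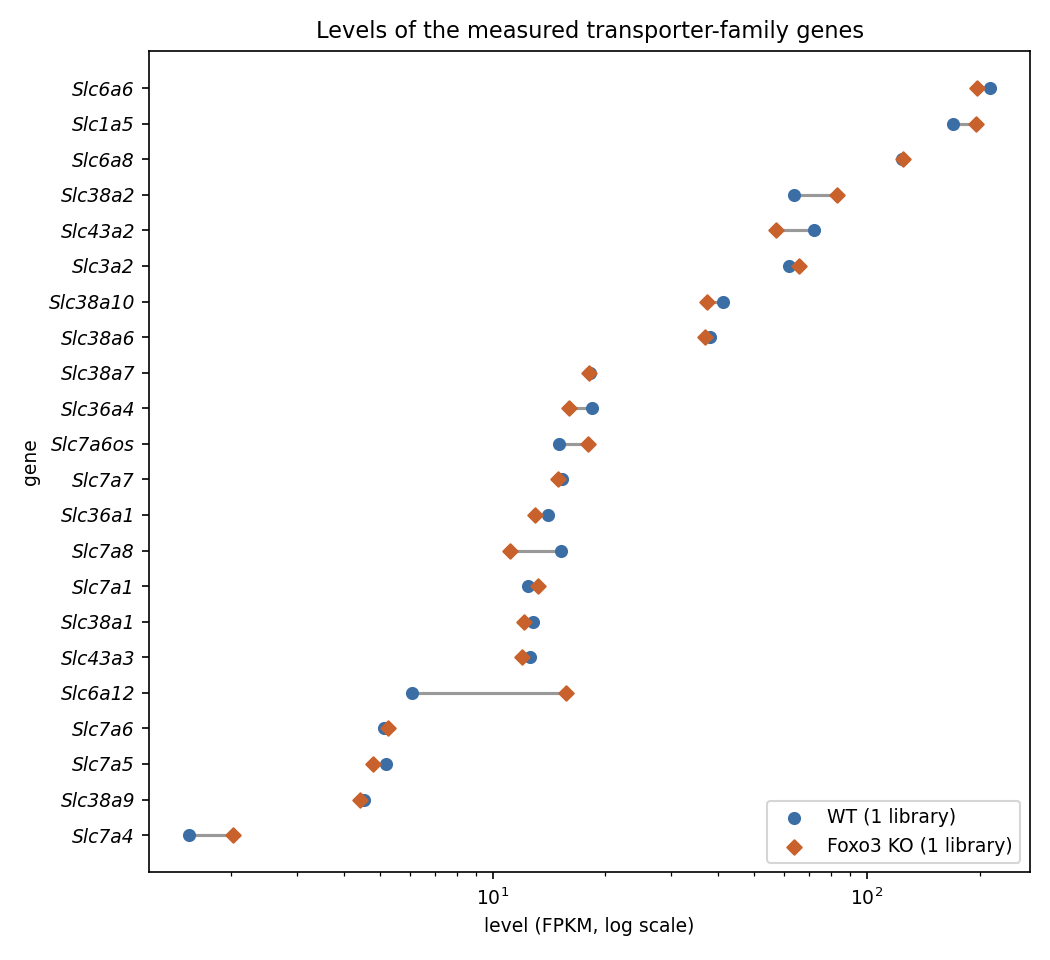
Level of each of the 22 measured members in FPKM on a log scale, with a circle for the WT library and a diamond for the KO library, ordered by mean level. The circles and diamonds lie close together for most genes, and the widest gap on this axis is that of Slc6a12, from 6.07 to 15.7 FPKM.

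A single member, Slc6a12, passed 2-fold, and none was 2-fold lower. Over all measured genes 0.12% were 2-fold higher and 0.2% were 2-fold lower in the KO library. At 1.5-fold the members gave the same counts, 1 higher and 0 lower, beside 0.41% and 0.94% of all measured genes. Slc6a12 was already known to differ when the members were chosen, so its count supports nothing about the set. Of the 22 measured members 9 had a log2 ratio above 0, or 40.9%, where 57.6% of all measured genes did, and 8 did under both scalings, where the ratio of the creatine carrier gene Slc6a8 alone crossed to below 0. The other 13 lay below 0, as did 42.4% of all measured genes. The median log2 ratio of the members was -0.03 and that of all measured genes 0.03. Without members whose exons overlap another gene the median of the members was 0.0013, and 8 of 16 lay above 0, so the sign of this median rests on which members are counted.

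**Figure D2:**
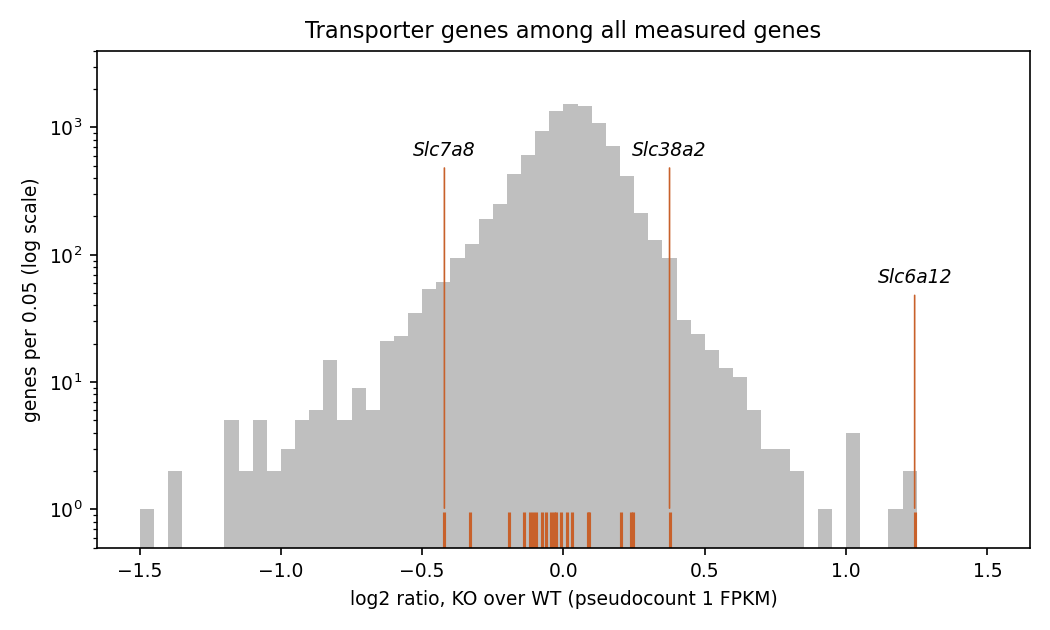
Number of measured genes per step of 0.05 in log2 ratio, on a log count axis, with the 22 measured members as ticks at the foot and 3 of them named. Nearly all ticks stand within the bulk of the genes, Slc6a12 stands at 1.24, and 8 genes beyond 1.5 either way are not drawn.

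The osmolyte and creatine carriers held both the most abundant member and the one with the widest difference. Slc6a12 (chromosome 6, 121343076 to 121365775, plus strand) was at 6.07 FPKM in WT and 15.7 FPKM in KO cells, which is 2.59 times the WT level and a log2 ratio of 1.24. Only 5 of the 10003 measured genes had a higher log2 ratio. Its ratio stood at 0.91 with a pseudocount of 5 FPKM, just under 2-fold. Slc6a6, which carries the osmolyte taurine (chromosome 6, 91684053 to 91759066), was at 212.9 FPKM in WT and 196.3 FPKM in KO cells. Slc6a8, which brings in creatine for the phosphocreatine energy buffer, was at 123.9 and 125.0 FPKM. The 3 genes together summed to 342.9 FPKM in WT and 337.0 FPKM in KO cells. Slc6a12 was 1.77% of that sum in WT and 4.67% in KO cells, so taurine and creatine carrier transcripts far outnumbered those of the betaine carrier in both.

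None of the other listed protein-coding genes within 200 kb of Slc6a12 passed 1.5-fold on the log2 ratio. Slc6a13, a GABA and taurine carrier gene that ends 5342 bases upstream, was at 0.132 FPKM in WT and 0.242 FPKM in KO cells, 1.84 times the WT level but far below 1 FPKM. Iqsec3, on the other side at 7157 bases and on the opposite strand, was at 0.126 and 0.0712 FPKM. Usp18, the interferon-induced protease that removes ISG15, lies 72158 bases away and was at 6.94 and 5.35 FPKM, a log2 ratio of -0.32. Pex26, a peroxisome gene farther off, was at 3.97 and 4.70 FPKM. No exon of Slc6a12 overlaps another gene in the annotation.

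The remaining Slc6a members were low. Of the 19 listed genes of this family 3 were measured, 11 lay below 1 FPKM in both libraries and above 0 in at least 1, and 5 were listed at 0 in both. Slc6a17, a vesicle carrier of neutral amino acids, and Slc6a4, the serotonin carrier gene, had the highest mean levels of those below 1 FPKM. The glycine carrier gene Slc6a9 was at 0.344 and 0.614 FPKM, and its exons overlap those of B4galt2 and Ccdc24. Slc6a20a read 0.0217 FPKM in WT cells and is listed at 0 in KO cells, so a fold is not given.

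The neutral amino acid exchangers were represented by Slc1a5, the glutamine carrier ASCT2 (chromosome 7, 16781340 to 16798274). It was at 169.9 FPKM in WT and 195.8 FPKM in KO cells, 1.15 times the WT level, with a log2 ratio of 0.20. At 25.8 FPKM this was the widest difference of any member in absolute FPKM. Its relative Slc1a4, which carries alanine, serine and cysteine, was at 0.295 and 0.393 FPKM. The glutamate carriers of the same family were low. Slc1a2 was the highest of them, at 0.443 and 0.234 FPKM, Slc1a7 followed at 0.0898 and 0.0731 FPKM, Slc1a1 and Slc1a3 were lower still and Slc1a6 was listed at 0. Slc1a5 thus made up nearly all of the family's sum of 170.8 FPKM in WT and 196.5 FPKM in KO cells.

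Slc3a2 encodes the CD98 heavy chain, which carries light chains to the cell surface. It was at 61.8 FPKM in WT and 65.9 FPKM in KO cells, and Slc3a1, the heavy chain known from kidney and gut, was listed at 0 in both. Set beside it were 5 light chains known to pair with Slc3a2, which are not all of its partners. Slc7a10, a further light chain of heavy-chain exchangers, was listed at 0 in both libraries. Of the 5, Slc7a7, which exports cationic amino acids, was at 15.3 and 15.0 FPKM. Slc7a8, a carrier of small and large neutral amino acids (chromosome 14, 54722209 to 54781946), was at 15.2 FPKM in WT and 11.1 FPKM in KO cells, a log2 ratio of -0.42, the lowest of the measured members, with 230 of the 10003 measured genes lower still. In the WT library Slc7a7 and Slc7a8 were thus nearly level, and in the KO library Slc7a8 was the lower of the pair. Slc7a5, the leucine carrier LAT1, was at 5.18 and 4.78 FPKM and Slc7a6, a relative of Slc7a7, at 5.12 and 5.24 FPKM. Exons of Slc7a7 overlap those of Oxa1l.

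Slc7a11 (chromosome 3, 49892526 to 50443614) was at 0.570 FPKM in WT and 0.484 FPKM in KO cells, under 1 FPKM in both and so not measured by the rule used here. The KO value was 84.8% of the WT value. Both were under 1% of the Slc3a2 level, at 0.922% and 0.734%. The 5 light chains summed to 67.0% of the Slc3a2 level in the WT library and 55.5% in the KO library, with Slc7a8 going from 24.6% to 16.8% and Slc7a7 from 24.8% to 22.7%.

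Of the cationic carriers, Slc7a1, the main importer of arginine and lysine in many cells, was at 12.4 FPKM in WT and 13.2 FPKM in KO cells. Slc7a2, the carrier known to be induced with arginase and nitric oxide synthase in activated macrophages, was at 0.501 and 0.540 FPKM. Slc7a4, whose exons overlap those of P2rx6, stood 0.25 above 0 in log2 ratio, and Slc7a3 was at 0.0708 and 0.279 FPKM. Slc7a6os, the gene beside Slc7a6 that is no carrier, was at 15.1 FPKM in WT and 18.0 FPKM in KO cells, while Slc7a6 itself, 2010 bases away, differed little. The Slc7a family summed to 71.6 FPKM in WT and 71.2 FPKM in KO cells, with a median log2 ratio of 0.03 over 7 measured members that was below 0 without Slc7a6os.

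Slc38a2, the sodium-coupled neutral amino acid carrier SNAT2 (chromosome 15, 96687392 to 96699730), was at 63.8 FPKM in WT and 83.1 FPKM in KO cells. This is 1.30 times the WT level, with a log2 ratio of 0.38, and 163 of the 10003 measured genes were higher still. The other 5 measured members of its family all had log2 ratios below 0, from -0.14 to -0.01. They were Slc38a10 at 41.2 and 37.3 FPKM, Slc38a6 at 38.2 and 37.0 FPKM, Slc38a7, the lysosomal glutamine exporter, at 18.2 and 18.0 FPKM, Slc38a1 at 12.8 and 12.1 FPKM and Slc38a9, the lysosomal arginine sensor, at 4.53 and 4.43 FPKM. Slc38a1 lies 44478 bases from Slc38a2 and is a carrier of the same kind, but the log2 ratios of the 2 genes have opposite signs. Exons of Slc38a9, Slc38a10 and, among the osmolyte carriers, Slc6a6 overlap those of unnamed models. Slc38a3, Slc38a4, Slc38a5 and Slc38a8 were listed at 0 in both libraries.

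Both measured Slc36a members were lower in the KO library. Slc36a4 was at 18.4 FPKM in WT and 16.0 FPKM in KO cells, and Slc36a1, which exports small amino acids from the lysosome, at 14.0 and 12.9 FPKM. The neighbours of Slc36a1 on chromosome 11, Slc36a2 and Slc36a3, were at 0.120 and 0.0974 FPKM and at 0.115 and 0.163 FPKM. Slc43a2, a carrier of branched-chain and aromatic amino acids (chromosome 11, 75531694 to 75577575), was at 72.1 FPKM in WT and 57.1 FPKM in KO cells, with a log2 ratio of -0.33, and an unnamed model shares exon bases with it. Slc43a3, a purine base carrier, was at 12.5 and 12.0 FPKM, and Slc43a1 at 0.0327 and 0.0234 FPKM.

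**Figure D3:**
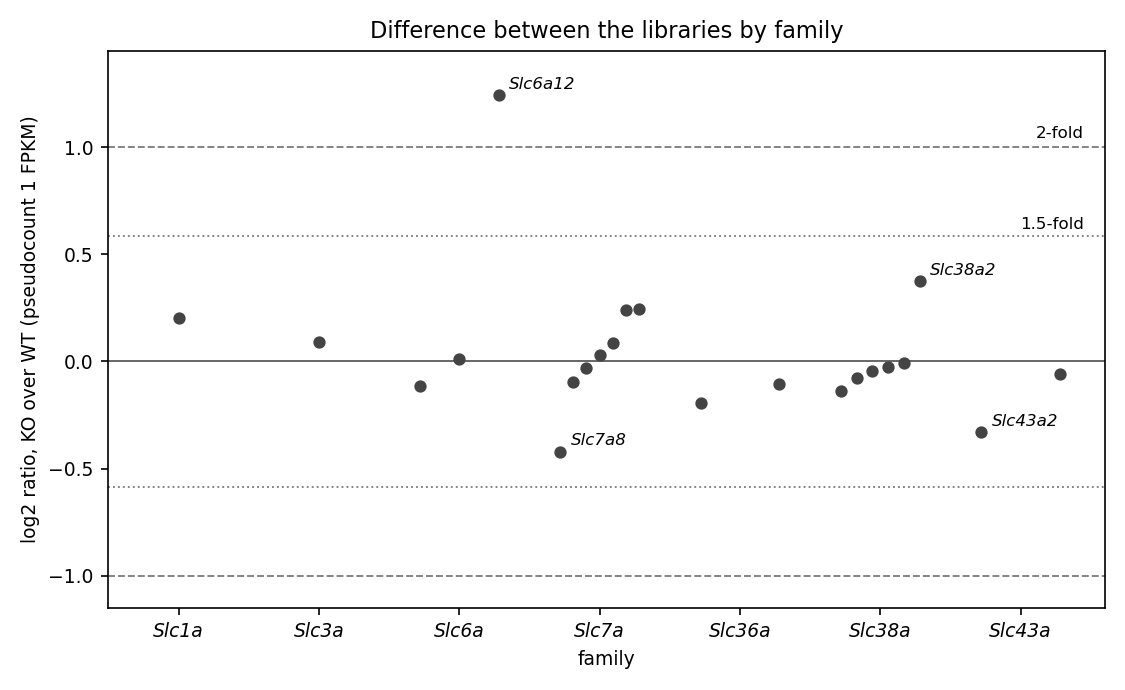
Log2 ratio of each measured member by family, with dotted lines at 1.5-fold and dashed lines at 2-fold. Slc6a12 lies above the upper dashed line, the other 21 lie between the dotted lines, and Slc38a2, Slc7a8 and Slc43a2 are the next farthest from 0.

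Compared by their sums, the families differed in direction as well as in level. The Slc6a family was the most abundant, at 346.2 FPKM in WT and 340.6 FPKM in KO cells, followed by Slc38a at 178.8 and 192.0 FPKM and Slc1a at 170.8 and 196.5 FPKM. Log2 ratios of sums were 0.20 for Slc1a, 0.10 for Slc38a and 0.09 for Slc3a, and -0.02 for Slc6a, -0.01 for Slc7a, -0.16 for Slc36a and -0.29 for Slc43a, and none changed sign under either scaling. For Slc1a, Slc6a and Slc38a the sign of the ratio turned on 1 gene. Without its most abundant member the ratio was -0.25 for Slc1a, over genes of under 1 FPKM, 0.12 for Slc6a and -0.08 for Slc38a, while that of Slc43a stayed below 0 at -0.07. The Slc38a median of -0.04 over 6 measured members thus has the opposite sign to the ratio of its sums.

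**Figure D4:**
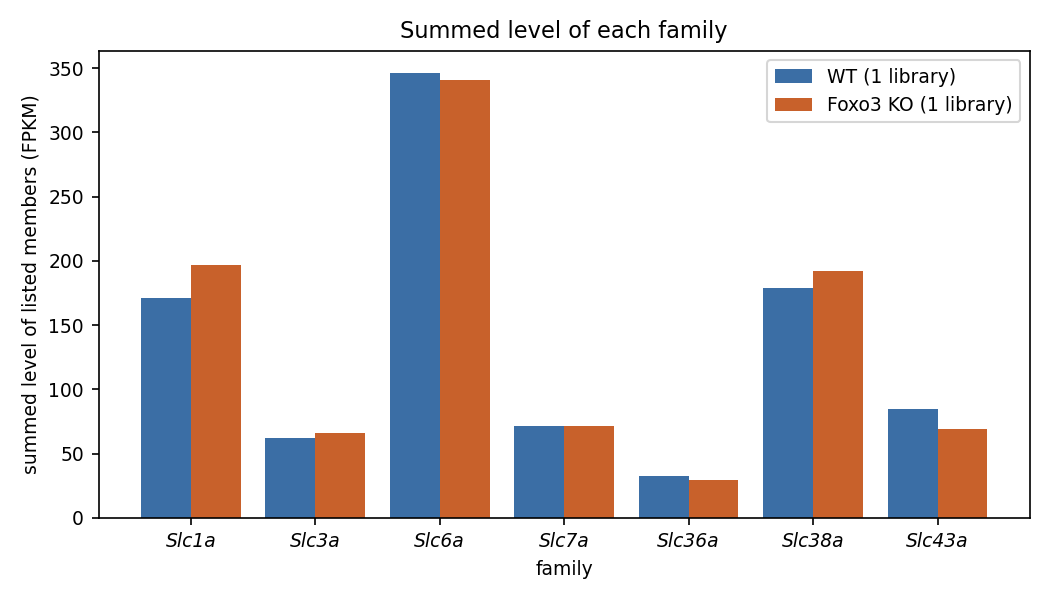
Summed FPKM of all listed members of each family, with 1 bar for the WT library and 1 for the KO library. The bars of a family are of similar height throughout, and the widest gaps are those of Slc1a, 170.8 and 196.5 FPKM, and Slc43a, 84.7 and 69.1 FPKM.

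Members at very low level were resolved only in steps of a read. Of 11 members above 0 and under 0.15 FPKM in both libraries, 7 had a KO to WT ratio that, multiplied by the depth ratio of 1.40, lay within 0.03 (log2) of a ratio of whole numbers from 1 to 3. Slc1a1, Slc1a3 and Slc43a1 had ratios of 0.717, 0.716 and 0.714, as equal read numbers would give at this depth ratio. Slc6a3, Slc6a20b and Slc38a11 had ratios of 1.43, as 2 reads against 1 would give. The depth ratio was itself estimated from genes of this level, in a search that gave equal read numbers the most weight. Another depth ratio can also turn these values into ratios of whole numbers, so the read numbers and the deeper library are not settled by them. Ratios of such members are therefore not read as differences.

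Related gene lists were set beside the carriers. The amino acid response list holds the factor ATF4, genes it activates and other genes of the response, such as Eif2ak4. Of its measured genes 21 of 25 had a log2 ratio above 0, and 20 under both scalings. The median was 0.15, beside 57.6% above 0 and a median of 0.03 for all measured genes. The 4 below 0 were Atf5, at 10.5 and 9.05 FPKM, Ddit3, at 11.9 and 11.0 FPKM, Wars and Eprs. None passed 1.5-fold. Mthfd2, a mitochondrial folate enzyme, was at 15.3 FPKM in WT and 21.5 FPKM in KO cells, the methionyl-tRNA synthetase gene Mars, whose exons overlap those of Ddit3, at 24.9 and 32.6 FPKM and the asparagine synthetase gene Asns at 16.9 and 21.9 FPKM. Atf4 itself was at 95.1 and 105.5 FPKM. The median of the macrophage markers was -0.23 in the same comparison, and its part was not tested.

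The cystine and glutathione list went the other way, with 10 of 14 measured genes below 0, under both scalings too, and a median of -0.16. Of all measured genes 42.4% lay below 0. Hmox1, haem oxygenase, was the 1 gene of all 6 lists past 1.5-fold, at 197.3 FPKM in WT and 103.5 FPKM in KO cells. Among all measured genes 0.94% were 1.5-fold lower and 0.41% higher, so this count does not set the lists apart. Gclm, the regulatory subunit of the enzyme that starts glutathione synthesis, was at 59.3 and 47.1 FPKM, and Cd44, which is known to hold the cystine carrier at the cell surface, at 122.8 and 101.2 FPKM. Gclc, the catalytic subunit of the same enzyme, was at 16.4 and 14.6 FPKM. The median of the macrophage markers, -0.23, was below 0 beside that of this list, and its part was not tested.

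The osmotic response list had no common direction, with 10 of 16 measured genes above 0 and a median of 0.04. Nfat5, the factor known to bind the tonicity response element, was at 10.9 FPKM in WT and 10.7 FPKM in KO cells. Of genes known to respond to it, Akr1b3, aldose reductase, which makes the osmolyte sorbitol, was at 37.0 and 28.3 FPKM. Slc5a3, the inositol carrier gene, was at 13.1 and 16.9 FPKM, and its exons overlap those of Mrps6. Isyna1, which makes inositol, was at 49.1 and 56.0 FPKM. Of this list 0 genes passed 1.5-fold, beside 0.41% higher and 0.94% lower among all measured genes, so a list of this size would hold few or none.

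The remaining lists stayed near the median of all genes. Lysosomal amino acid sensing genes were above 0 in 19 of 31 cases, 16 under both scalings, with a median of 0.03. Fnip2, a partner of folliculin, was at 34.3 FPKM in WT and 23.9 FPKM in KO cells, Sesn1, of the sestrin family of stress-induced mTORC1 inhibitors, at 73.6 and 56.2 FPKM and Nprl2, of a complex that restrains mTORC1, at 9.82 and 11.4 FPKM. Enzymes of amino acids and osmolytes were above 0 in 12 of 17 cases, 11 under both scalings. Among them the aspartate aminotransferase gene Got1 was at 45.7 and 55.7 FPKM and Gamt, of creatine synthesis, at 10.8 and 13.2 FPKM. The mitochondrial aspartate aminotransferase gene Got2 was at 69.4 and 78.4 FPKM. Chdh, which makes betaine from choline, was at 0.0315 and 0.0180 FPKM, Bhmt, which uses betaine to methylate homocysteine, was at 0.0173 FPKM in WT and listed at 0 in KO cells, and Gatm, which starts creatine synthesis, was at 6.50 and 4.21 FPKM. The last 3 genes were chosen after their values were seen. Ckmt1 of the same list, whose exons overlap those of Strc, was higher in the KO library, at 6.65 and 9.40 FPKM. Other carriers, which include Slc33a1, a carrier of acetyl-CoA, were above 0 in 9 of 15 cases, 8 under both scalings. In this list the lysosomal peptide and histidine carriers Slc15a3 and Slc15a4 were at 10.5 and 8.44 FPKM and at 36.6 and 30.2 FPKM. The lysosomal carrier Slc17a5 was at 27.2 and 22.6 FPKM. Exons of Slc15a3 overlap those of Tmem132a.

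**Figure D5:**
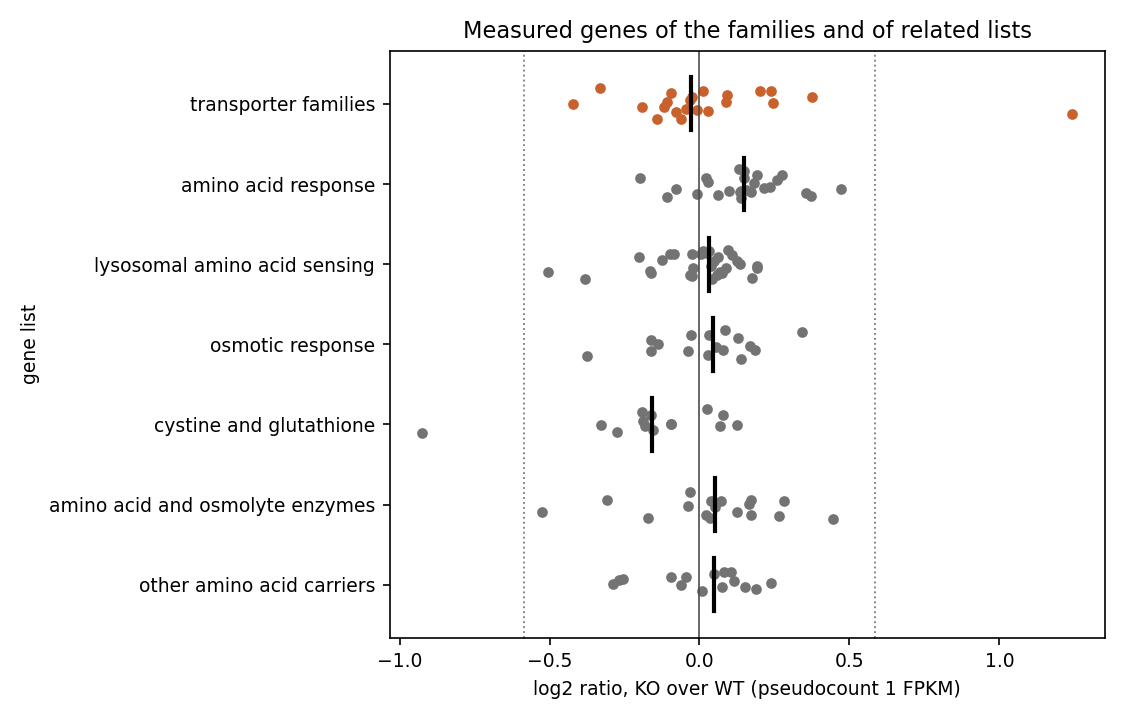
Log2 ratio of each measured gene of the transporter families and of 6 related lists, with a bar at each median and dotted lines at 1.5-fold. The amino acid response list has the highest median, 0.15, the cystine and glutathione list the lowest, -0.16, and Slc6a12 is the point farthest to the right.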

How the data were processed

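The deposited values were read as FPKM, made by the authors. No header or label names the unit, which was inferred from the values, which are not whole numbers. Comparisons of level between genes rest on this inference. An apparent added constant of 0.000001 was subtracted. TopHat, edgeR and the build mm10 appear in the submitters' processing notes. Versions, quantifier, annotation, gene filter and scaling: not given in the sources used here. No counts or read totals were used. With 1 library per genotype, values were compared by a fixed fold on log2(FPKM + 1), with no test, interval or error. Genes at 1 FPKM or more in at least 1 library were measured. Every measured member was to be named, and of each related list the 3 genes at 10 FPKM or more with the largest absolute log2 ratio. Other genes named were chosen after their values were seen. Values of some single genes are not reported here. Members and lists were chosen with earlier results of these data known. Relative depth was estimated from 1661 genes under 0.15 FPKM in both libraries. It was the offset with the highest score for ratios within 0.015 (log2) of ratios of whole numbers from 1 to 3. Equal read numbers counted 3 times in this score. Only KO to WT depth ratios from 1 to 2 were searched, so a deeper WT library could not have been returned. Coordinates and exon overlaps, without regard to strand, come from GENCODE M21 on mm10, and promoters from RefSeq. Alternatives were 2 scalings, pseudocounts of 0.25 and 5 FPKM, no minimum and a minimum of 10 FPKM, and leaving out genes. The fold rule was tested on simulated data. Computation used Python 3.11.15, numpy 2.4.6 and pandas 2.3.3, and plots matplotlib 3.10.9.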

Additional observations from a re-analysis of the deposited data

How the results depend on the processing

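The scalings were a trimmed mean (30% of log ratios and 5% of levels trimmed at each end) and centring on the median gene. They divided the KO values by 1.02, moved the median log2 ratio of all genes by -0.02 and -0.03 and moved no count or median of members beyond its bound, which was 1.5 times for counts and 0.142 (log2), the spread of all measured genes, for other values. Of 108 recomputed counts, medians and sums 99 stayed within these bounds. The 2-fold count of higher members was 0 with a pseudocount of 5 FPKM and 0 without Slc6a12, which also took the 1.5-fold count to 0. With no minimum 21 of 62 members lay above 0, since low genes enter. The Slc6a median was 0.63 without members whose exons overlap another gene, which leaves 2 genes of the family. Without the most abundant member the ratio of sums was -0.2473 for Slc1a, -0.0780 for Slc38a, -0.0664 for Slc43a and 0.1155 for Slc6a. Without overlapping members it was also -0.0664 for Slc43a and 0.1132 for Slc6a, and the median of all members was 0.0013. These follow from which genes were left. Of 88 recomputed log2 ratios of single members 86 stayed within the bound. The 1 member past 1.5-fold, Slc6a12, did not change sign. The scalings move every ratio by far less than the bound and a pseudocount cannot change a sign, so much of this was fixed beforehand. Leaving out Slc7a6os or Slc6a12 was chosen after seeing the data. Medians of families with under 3 measured members were not recomputed under the alternatives. No paired analysis was possible because each genotype has 1 library, and none could be left out. Depth limits the members under 1 FPKM most, and the WT library more than the KO library only if the estimated depth ratio holds.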
